A study of Mus musculus with 4 samples.

Results

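The genes described here are 10 MAP kinase phosphatases of the dual-specificity phosphatase (Dusp) family, taken by symbol from the deposited count table, where each of them matched 1 of 23282 features: Dusp1, Dusp2, Dusp4, Dusp5, Dusp6, Dusp7, Dusp8, Dusp10, Dusp14 and Dusp16. They were measured in C2C12 myotubes, the fused muscle cells formed by a mouse myoblast line that the labels give as female, and both groups had been deprived of steroids. The vehicle group had 2 libraries and the dexamethasone group, which received the synthetic glucocorticoid at 1 µM, had 2, each collected after 2 h. Dexamethasone activates the glucocorticoid receptor, and the RNA sequenced was the fraction that stayed with chromatin after nuclei were lysed, so that transcripts still attached to their template are enriched. The sources used here do not say whether the libraries of a group came from separate cultures, so p-values measure the spread between these libraries, which may be technical. This is 1 cell line in culture, and in such bulk samples fewer cells of a type and less RNA per cell cannot be told apart.

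MAP kinases carry signals from growth factors, stress and cytokines by phosphorylating other proteins, and they are active when a threonine and a tyrosine in their activation loop are both phosphorylated. MAP kinase phosphatases remove both phosphates and so switch the kinase off. Their genes are often transcribed in response to the same signals, which makes them feedback inhibitors, and Dusp1 is widely known as a glucocorticoid-induced gene through which these steroids dampen p38 and JNK signalling. In skeletal muscle the family acts on the kinases that govern differentiation, stress responses and metabolism. Dusp1, Dusp2, Dusp4 and Dusp5 encode nuclear enzymes made in response to stimuli, Dusp6 and Dusp7 encode cytoplasmic enzymes that favour ERK, Dusp8, Dusp10 and Dusp16 encode enzymes that favour JNK and p38, and Dusp14 encodes a small phosphatase without the kinase-binding domain of the others.

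The promoters of 3 members are shown. Dusp1 is the member best known as a glucocorticoid target. Dusp8 and Dusp14 lay farthest from vehicle relative to their SE among the matched members. Promoter windows of 300 bases (250 before and 50 after the start) came from RefSeq on GRCm38.p6, a later build than the mm9 of the submitters' processing notes, and 9 of the members were matched by symbol; Dusp4 was not. The 150 bases before the start are printed 5′ to 3′ on the gene's strand, on chr17:26508473-26508622 (minus strand) for Dusp1, chr7:142095285-142095434 (minus strand) for Dusp8 and chr11:84068358-84068507 (minus strand) for Dusp14. Capitals mark TGACG or its reverse complement CGTCA, the core of the cyclic AMP response element, and the full element TGACGTCA holds both cores in overlap.
Dusp1: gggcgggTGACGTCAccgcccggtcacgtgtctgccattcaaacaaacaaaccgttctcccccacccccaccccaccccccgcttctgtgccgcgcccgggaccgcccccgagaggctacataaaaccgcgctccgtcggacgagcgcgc
Dusp8: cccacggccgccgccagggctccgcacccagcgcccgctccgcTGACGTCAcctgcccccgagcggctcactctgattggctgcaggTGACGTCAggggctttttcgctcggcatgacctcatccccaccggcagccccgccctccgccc
Dusp14: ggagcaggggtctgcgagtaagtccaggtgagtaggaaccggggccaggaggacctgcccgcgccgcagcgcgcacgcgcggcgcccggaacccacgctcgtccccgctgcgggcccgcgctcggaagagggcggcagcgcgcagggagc

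Dusp1 held 1 full element in its window and Dusp8 held 2, whereas Dusp14 held none. On either strand, TGACGTCA was found in 2 of the 9 member windows and in 1.79% of 32851 promoter windows of the same length, some of them alternative starts of the same gene. The shorter core TGACG was found in 5 of the 9 (Dusp1, Dusp2, Dusp5, Dusp8 and Dusp16) and in 20.8% of all windows. TGTTCT, the core that the glucocorticoid receptor recognises, and its reverse complement AGAACA were found in 0 of the 9 windows and in 19% of all windows. The palindrome of AGAACA, 3 bases and TGTTCT was in 0 of the 9 and in 0.00913% of all. The GC box GGGCGG, on either strand, was in 8 of the 9 and in 35.7% of all, and TATAAA was in 0 of the 9 and in 13.6% of all. These are matches of letters in short windows and were not tested for binding. Sequence outside the windows was not searched, so sites farther from a start would be missed.

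The libraries held between 19631435 and 88596296 counts, the fewest in vehicle replicate 1 and the most in dexamethasone replicate 2. The treatment check was Fkbp5, a glucocorticoid-induced co-chaperone gene, at 21.5 and 21.6 CPM (counts scaled by library size and TMM factor, as in every CPM here) in vehicle replicates 1 and 2 and at 1019 and 697 in dexamethasone replicates 1 and 2. Nr3c1, the gene of the receptor, was at 238 and 180 CPM against 121 and 83.8. Myotube markers were present throughout, with a summed level of 123308 and 43126 CPM in vehicle and 118866 and 42088 in dexamethasone, most of it Ttn, and none of the 8 was at 0. Of 5 myoblast and cycling-cell markers none was at 0, and their summed level was 53.1 and 56.9 CPM in vehicle against 38.3 and 44.3 in dexamethasone. That difference lay in Pax7, a satellite cell gene at 31.97 and 39.0 CPM against 17.9 and 22.9, while for the cycling gene Mki67 the levels were 8.69 and 6.59 CPM against 7.81 and 8.15. Among 4 macrophage markers the sum lay between 3.03 and 4.003 CPM, nearly all Cd68, with Ptprc at 1 count or fewer per library, and among 4 endothelial markers it lay between 1.90 and 2.47 CPM with Kdr at 1 count or fewer. The part of these cell markers in the results that follow was not tested.

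In the vehicle libraries the phosphatase genes differed widely in level. Per kb of exon (GENCODE M21 exon union), Dusp10 was highest in the vehicle libraries at 32.3 ± 11.5 CPM per kb (SD, n = 2, as for the other levels in this paragraph), followed by Dusp14 at 10.3 ± 1.31 and Dusp16 at 9.60 ± 0.906. Dusp8 (3.14 ± 0.0160), Dusp1 (2.86 ± 0.354), Dusp6 (2.39 ± 0.474), Dusp5 (2.07 ± 0.529), Dusp4 (1.68 ± 0.212) and Dusp7 (1.12 ± 0.585) lay close together, and Dusp2 was lowest at 0.212 ± 0.110. By this measure the genes for the enzymes that favour JNK and p38 held 3 of the 4 highest places. Of the 5 lower neighbouring pairs, 4 did not separate. The vehicle libraries of Dusp1 and Dusp6, Dusp6 and Dusp5, Dusp5 and Dusp4, and Dusp4 and Dusp7 overlapped, as did those of Dusp14 and Dusp16. The order depends on the length used, since the sources do not say whether introns were counted. Dusp10, Dusp16 and Dusp8 ranked 2, 3 and 5 with the whole GENCODE gene span and 2, 6 and 5 with the RefSeq span. Per kb of the whole GENCODE gene span 3 members kept their place, with Dusp6 first and Dusp1 last, because that model gives Dusp1 a span of 56539 bases; per kb of the RefSeq span, where Dusp1 has 2882 bases, Dusp1 came first at 3.29 ± 0.406 CPM per kb and 1 member kept its place.

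**Figure D1:**
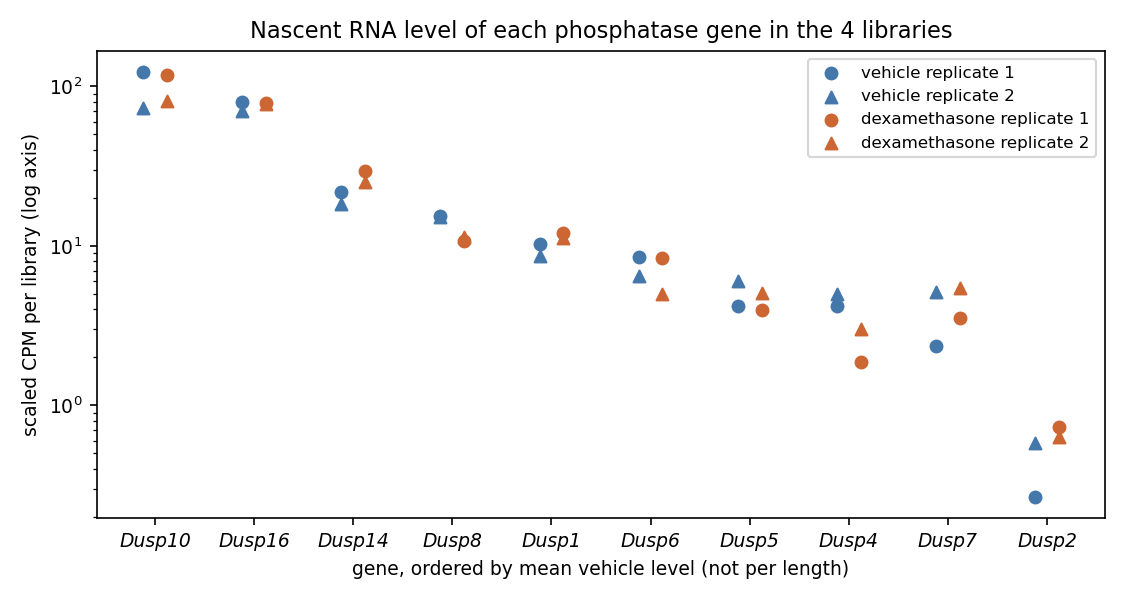
Scaled CPM on a log axis for each phosphatase gene in the 4 libraries, with vehicle in blue, dexamethasone in orange, replicate 1 as circles and replicate 2 as triangles. Dusp10 and Dusp16 lie between 69.9 and 123 CPM and Dusp2 between 0.268 and 0.734 CPM; the groups separate without overlap, downward for Dusp4 and Dusp8 and upward for Dusp1, Dusp2 and Dusp14.

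The comparison of dexamethasone with vehicle asks which of these genes differed in the level of chromatin RNA after 2 h. Relative to their SE, the members farthest from vehicle were Dusp8 and Dusp4, at 0.726-fold and 0.537-fold, and Dusp14, at 1.36-fold. Dusp2 was at 1.53-fold with a wide error, and Dusp1 at 1.23-fold. None of the 10 passed the threshold (edgeR quasi-likelihood test, two-sided, adjusted p under 0.05 over all genes tested): 0 members were higher, against 5 of 13285 genes or 0.0376%, and 0 were lower, against 0 genes or 0%. DESeq2's Wald test called 0 members too, where 2.22% of its genes were called in either direction, and limma-voom called 0, where 0% of all genes were. Their counts at an unadjusted p under 0.05 were 1 member with DESeq2, against 5.87% of all genes, and 2 with limma-voom, against 5.80%. At an unadjusted edgeR p under 0.05, 2 members were lower, where 1.69% of all genes were, and 0 were higher, where 4.09% were. The 2 groups did not overlap, with dexamethasone on the higher side, in 3 members (Dusp1, Dusp2 and Dusp14) and in 15.0% of all genes. Dexamethasone was on the lower side in 2 (Dusp4 and Dusp8) and in 12.9% of all genes. The median log2 fold change was 0.04 over the members and -0.00 over all genes.

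**Figure D2:**
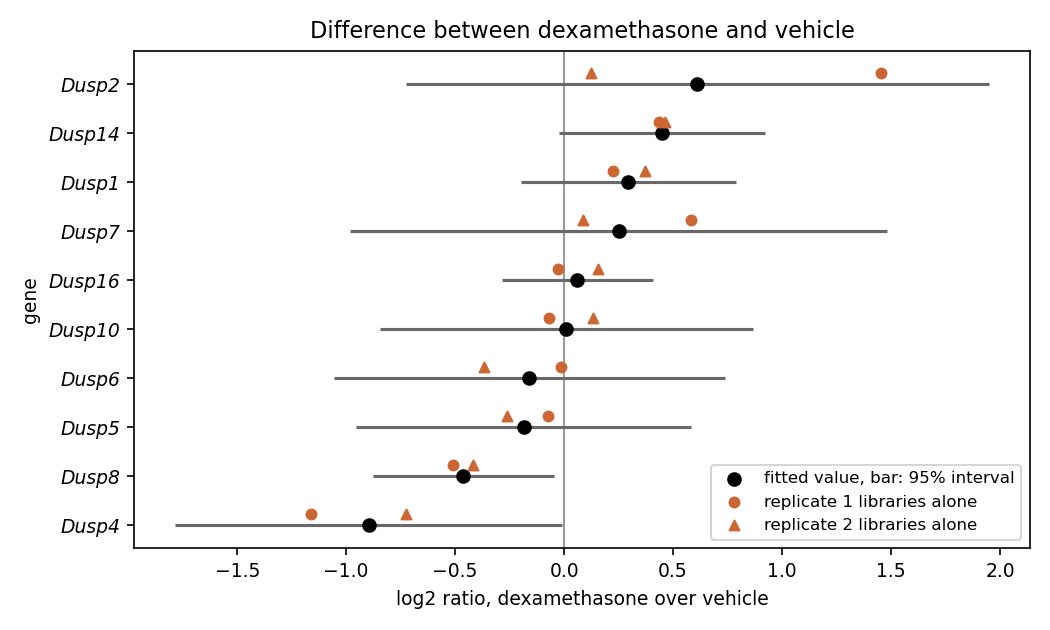
Log2 ratio of dexamethasone to vehicle for each phosphatase gene: black points are the edgeR values with 95% intervals as bars, and orange symbols are the ratios within replicate 1 (circles) and replicate 2 (triangles). The interval reaches past 0 in 8 of the genes and stays below 0 in Dusp4 and Dusp8; the 2 ratios of Dusp8, Dusp14 and Dusp1 lie close together.

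Dusp1 encodes the founding member of the family, a nuclear phosphatase of p38, JNK and ERK. It was at 10.3 and 8.64 CPM in vehicle replicates 1 and 2 and at 12.04 and 11.2 CPM in dexamethasone replicates 1 and 2, from 192, 328, 361 and 1043 counts. Both dexamethasone libraries were above both vehicle libraries, though by less than the step Fkbp5 made in the same libraries. The fitted log2 fold change was 0.30 (SE 0.186, edgeR unadjusted p 0.180, adjusted p 1.00), with a 95% interval of 0.871-fold to 1.73-fold that includes no difference. The log2 ratio was 0.23 within replicate 1 and 0.37 within replicate 2. In the GENCODE M21 models Dusp1 shares 11 exon bases, and 640 bases of gene span, with Ergic1 on the opposite strand. Ergic1 was at 169, 175, 169 and 168 CPM in vehicle 1, vehicle 2, dexamethasone 1 and dexamethasone 2. Whether introns or strand were counted is not stated.

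Dusp2, whose product acts mainly on ERK and p38 and is best known from immune cells, was the least abundant member. Vehicle replicates 1 and 2 held 5 and 22 of its counts, or 0.268 and 0.580 CPM, and dexamethasone replicates 1 and 2 held 22 and 59, or 0.734 and 0.632 CPM. The groups did not overlap, but 5 counts allow 0.0871 to 0.626 CPM (95% exact Poisson interval, counting error only) and 22 counts in vehicle replicate 2 allow 0.363 to 0.878, which spans both dexamethasone values. Its log2 fold change of 0.61 (SE 0.505) moved to 0.22 when vehicle replicate 1 was left out and to 1.33 when vehicle replicate 2 was. No difference in Dusp2 was detected with these counts and this spread between libraries.

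Dusp4 encodes a nuclear phosphatase of ERK and JNK. It was at 4.18 and 5.01 CPM in vehicle and at 1.87 and 3.03 CPM in dexamethasone, from 78, 190, 56 and 283 counts. Each dexamethasone library was lower than either vehicle library, and replicate 1 was the lower of its group both times. A log2 fold change of -0.90 (SE 0.336) corresponds to 0.537-fold (95% interval 0.290 to 0.995), with an edgeR unadjusted p of 0.0488 and an adjusted p of 0.856. It was -1.30 without dexamethasone replicate 2 and -0.60 without dexamethasone replicate 1, the library with fewest counts of this gene.

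Dusp5, the gene of a nuclear phosphatase specific to ERK, was at 4.18 and 6.03 CPM in vehicle and at 3.97 and 5.03 CPM in dexamethasone. The groups overlapped, and replicate 2 was the higher library in each. The log2 fold change was -0.19 (SE 0.290) and became 0.11 without vehicle replicate 2. An antisense transcript in the GENCODE M21 models shares 547 exon bases with Dusp5.

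Of the ERK phosphatases of the cytoplasm, Dusp6 was at 8.53 and 6.43 CPM in vehicle and at 8.44 and 4.99 CPM in dexamethasone. Dusp7 was at 2.36 and 5.14 CPM in vehicle and at 3.54 and 5.45 CPM in dexamethasone. In both genes the groups overlapped and the libraries separated by replicate number instead, with replicate 1 above replicate 2 for Dusp6 and below it for Dusp7. The fitted log2 fold change was -0.16 (SE 0.338) for Dusp6 and 0.25 (SE 0.465) for Dusp7. Neither direction held when single libraries were left out: Dusp6 was at 0.05 without vehicle replicate 1 and 0.18 without dexamethasone replicate 2, and Dusp7 at -0.18 and -0.10 without the same libraries.

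Among the genes for phosphatases of JNK and p38, Dusp8 was at 15.3 and 15.2 CPM in vehicle and at 10.8 and 11.4 CPM in dexamethasone, from 286, 578, 323 and 1065 counts. The libraries of each group were nearly equal and the groups stood apart, which no other member showed as clearly. Its log2 fold change was -0.46 (SE 0.157), or 0.726-fold (95% interval 0.545 to 0.968), the smallest unadjusted p of the 10 (edgeR 0.0357, adjusted 0.746). It ran from -0.50 to -0.42 over the fits that each left out 1 library. Its promoter is the one shown above with 2 full cyclic AMP response elements. In the GENCODE M21 models Dusp8 shares 66 exon bases with Gm32786 on the opposite strand.

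Dusp10, the most abundant member per kb of exon, was at 123 and 73.6 CPM in vehicle and at 117 and 80.5 CPM in dexamethasone. Dusp16 was at 79.9 and 69.9 CPM in vehicle and at 78.3 and 77.9 CPM in dexamethasone. The groups overlapped in both, and both replicate 1 libraries stood above both replicate 2 libraries, by a wide margin in Dusp10 and a narrow one in Dusp16. The log2 fold change was 0.01 (SE 0.324) for Dusp10 and 0.06 (SE 0.132) for Dusp16. On the log2 scale the 95% interval of Dusp16, 0.820-fold to 1.33-fold, was the narrowest among the members. Dusp10 was at -0.31 without vehicle replicate 2 and at -0.29 without dexamethasone replicate 1, and Dusp16 at -0.03 without vehicle replicate 2.

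Dusp14 was at 21.8 and 18.2 CPM in vehicle and at 29.5 and 25.2 CPM in dexamethasone, from 407, 692, 884 and 2349 counts. The groups stood apart, with dexamethasone the higher. Its log2 fold change was 0.45 (SE 0.178), or 1.36-fold (95% interval 0.984 to 1.89), with an edgeR unadjusted p of 0.0582 and an adjusted p of 0.903. The ratio was nearly the same in the 2 replicate numbers, at 0.43 and 0.46 on the log2 scale, and the fitted value ran from 0.32 to 0.58 over the fits that each left out 1 library.

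The replicate number moved several members more than the treatment did. From replicate 1 to replicate 2, Dusp10 differed by -0.74 on the log2 scale in vehicle and -0.54 in dexamethasone, and Dusp6 by -0.41 and -0.76. Dusp7 differed by 1.12 and 0.62 and Dusp5 by 0.53 and 0.34. Both replicate 1 libraries stood above both replicate 2 libraries in 3 members (Dusp6, Dusp10 and Dusp16), where 31.8% of all genes did, and below them in 2 (Dusp5 and Dusp7), where 32.1% did. Across the 13285 genes the difference between replicate numbers in vehicle correlated with that in dexamethasone (Pearson's r = 0.800, across genes, which are not independent replicates). Adding a replicate block to the model, which leaves 1 residual degree of freedom, gave 1 member called higher, against 6.87% of all genes, and 2 lower, against 5.78%. These were Dusp14 (0.45, adjusted p 0.00970), Dusp4 (-0.88, adjusted p 0.0205) and Dusp8 (-0.46, adjusted p 0.0181), with Dusp1 at 0.31 (adjusted p 0.0930). Nothing in the labels ties libraries of the same number to a common culture or date.

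**Figure D3:**
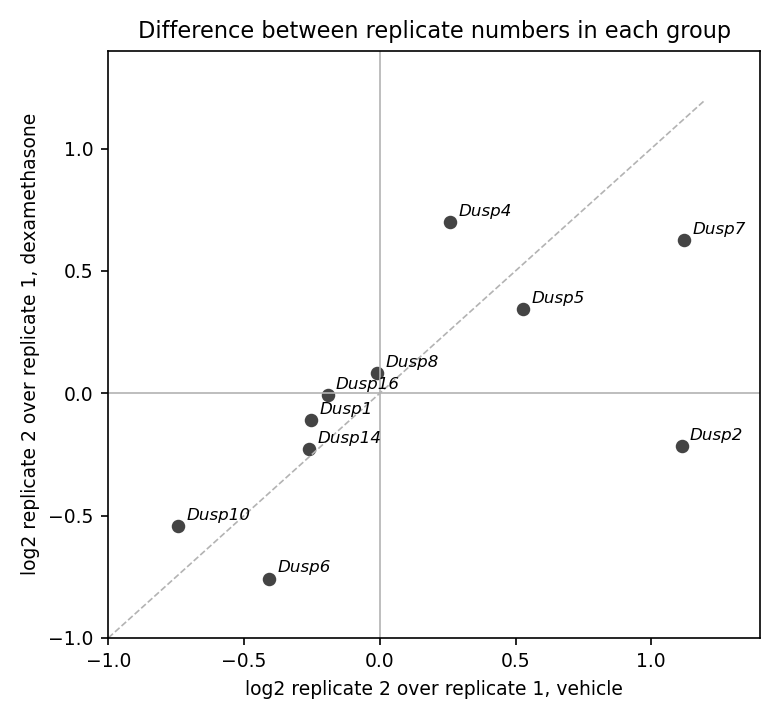
Log2 ratio of replicate 2 to replicate 1 in the vehicle group (x axis) and in the dexamethasone group (y axis) for each phosphatase gene; the dashed line marks equal ratios. Dusp6 and Dusp10 are negative in both groups and Dusp5 and Dusp7 positive in both, while Dusp8 lies near 0 in both and Dusp2, with 5 counts in vehicle replicate 1, is far from the line.

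The rest of the pathway was read from 5 lists holding 77 genes, of which 66 were abundant enough to test. None passed the edgeR threshold in either direction, and at an unadjusted p under 0.05, 4 were higher, where 4.09% of all genes were, and 0 lower, where 1.69% were. With DESeq2 3 of them passed as higher (Map3k6, adjusted p 4.05e-07, Map3k8, 5.50e-05, and Mknk2, 0.00113), where 1.81% of all genes did, and 0 as lower. In limma-voom 0 passed, and the replicate block gave 6 higher and 4 lower, where 6.87% and 5.78% of all genes were called. The median log2 fold change of the 66 was -0.03, beside -0.00 over all genes. Of the 7 list genes at 0 counts in every library, Mapk6, Map2k1, Map2k5 and Mapkapk3 belong to 371 neighbouring table genes, on the chromosome 9 minus strand, without a single count, and Araf belongs to such a run of 99 on the X chromosome, so they were treated as not measured. All 10 members had counts in every library, Dusp7 on the plus strand of chromosome 9 among them.

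Kinases upstream of the MAP kinases included the list gene with the smallest p, Map3k6. Of 22 in the list 19 were tested and 0 passed the adjusted threshold. At an unadjusted edgeR p under 0.05, 2 were higher and 0 lower, where 4.09% and 1.69% of all genes were. Map3k6, a stress-responsive kinase of the ASK family, was at 2.31 and 2.56 CPM in vehicle and at 9.88 and 9.57 CPM in dexamethasone, a log2 fold change of 1.99 (SE 0.204, edgeR adjusted p 0.123). Map3k8, which activates the ERK pathway downstream of inflammatory receptors, was at 6.60 and 7.22 CPM in vehicle and at 17.0 and 18.2 CPM in dexamethasone, a log2 fold change of 1.35 (SE 0.169, adjusted p 0.135). In both genes the libraries of a group lay close together and the difference between group means was several times the SD of either group. Map3k14, the kinase of noncanonical NF-κB signalling, was at 175 and 256 CPM in vehicle against 115 and 171 in dexamethasone (-0.59, SE 0.287). Under the replicate block it was called lower (adjusted p 0.00114), and Map3k6 (0.000324) and Map3k8 (0.000349) were called higher.

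Of 11 kinases that MAP kinases activate, 8 were tested and 0 passed the adjusted threshold. At an unadjusted edgeR p under 0.05, 2 were higher and 0 lower, where 4.09% and 1.69% of all genes were. Mknk2, an ERK- and p38-activated kinase that phosphorylates the translation factor eIF4E, was at 24.8 and 22.5 CPM in vehicle and at 54.3 and 44.3 CPM in dexamethasone, a log2 fold change of 1.06 (SE 0.169, edgeR adjusted p 0.201). Rps6ka5, a nuclear kinase that phosphorylates histone H3 and CREB, was at 79.9 and 75.0 CPM against 124 and 110 CPM, a log2 fold change of 0.60 (SE 0.131, adjusted p 0.350). Mapkapk2, a p38 substrate, was at 160 and 171 CPM in vehicle and at 144 and 152 CPM in dexamethasone (-0.16, SE 0.120). Under the replicate block Mknk2 (adjusted p 0.000369) and Rps6ka5 (0.00155) were called higher. The 4 kinase genes with an unadjusted edgeR p under 0.05 lay farther from vehicle, relative to their SE, than any of the phosphatase genes. They were picked by that p from 66 tested list genes, whereas every phosphatase gene was named. The contrast therefore does not compare kinase genes with phosphatase genes as groups.

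**Figure D4:**
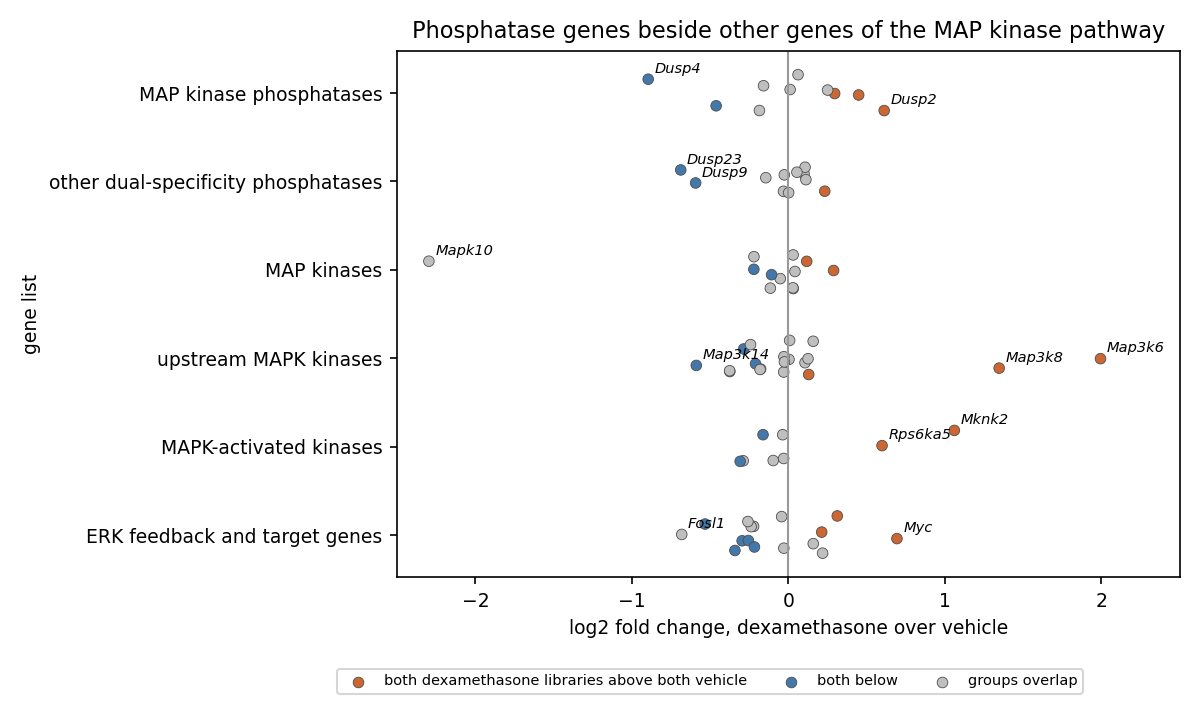
Log2 fold change of each tested gene of the phosphatase family and of the 5 pathway lists; orange marks genes with both dexamethasone libraries above both vehicle libraries, blue those with both below, and grey those whose groups overlap, with vertical position within a list random. Map3k6, Map3k8, Mknk2 and Myc stand to the right, at 1.99, 1.35, 1.06 and 0.69. The phosphatase genes lie between -0.90 and 0.61, a range that includes Rps6ka5 at 0.60.

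For the MAP kinase genes themselves, 12 of 14 were tested. At an unadjusted edgeR p under 0.05, 0 were higher and 0 lower, where 4.09% and 1.69% of all genes were. Mapk14, which encodes p38 alpha, was at 106 and 118 CPM in vehicle and at 138 and 136 CPM in dexamethasone (log2 fold change 0.29, SE 0.123, edgeR adjusted p 0.964), and the replicate block called it higher (adjusted p 0.0357). Mapk3, which encodes the kinase ERK1, was at 5.26 and 5.48 CPM against 4.77 and 4.46 CPM. Mapk10 was at 3.81 CPM in vehicle replicate 1 and between 0.278 and 0.567 CPM in the other libraries, so its log2 fold change of -2.30 (SE 1.24) became 0.34 without that library.

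Genes that ERK signalling is known to induce or that restrain it were listed as a readout of the pathway, and 16 of 17 were tested. None had an unadjusted edgeR p under 0.05, where 4.09% of all genes were higher and 1.69% lower. Of the list, 5 had a positive and 11 a negative log2 fold change, beside 6601 and 6684 of all genes. The median was -0.22, with a median SE of 0.220, beside -0.00 over all genes. Myc was at 30.1 and 19.9 CPM in vehicle and at 48.1 and 32.7 CPM in dexamethasone (0.69, SE 0.300). Etv1, an ETS transcription factor gene, was at 21.5 and 16.3 CPM against 13.7 and 12.4 CPM (-0.53, SE 0.203), and Spry2, a feedback inhibitor of receptor tyrosine kinase signalling, was at 9.76 and 12.1 CPM against 12.98 and 14.2 CPM (0.31, SE 0.192). With the replicate block Myc was called higher (adjusted p 0.00134) and Etv1 lower (0.0170), and Spry2 was not called (0.0913). These 3 had the smallest p of the list, and they did not share a direction.

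Finally, of 13 other dual-specificity phosphatases 11 were tested, with a median log2 fold change of 0.00. At an unadjusted edgeR p under 0.05, 0 were higher and 0 lower, where 4.09% and 1.69% of all genes were. The 3 with the smallest p were Dusp23 (-0.69, SE 0.463) and Dusp9 (-0.59, SE 0.483), each with 30 counts or fewer per library, and Dusp22, at 23.5 and 19.1 CPM in vehicle and 20.5 and 18.0 CPM in dexamethasone (-0.14, SE 0.182).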

How the data were processed

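The deposited table holds raw read counts per gene for 4 libraries, which the authors made and did not normalise; per the submitters' processing notes the tools were TopHat2 2.0.13, SAMtools 1.1, HTSeq 0.6.1 and DESeq2 1.18.1 and the build mm9, with no role given. Whether introns or strand were counted is not given in the sources used here, and the labels name both a total RNA and an mRNA library kit. Of 23333 rows, 51 repeated a gene with all its counts and were used once. Groups came from sample titles and columns were matched by name. filterByExpr (minimum count 10, minimum total 15) left 13285 genes, with the members all among them, tested with edgeR 4.0.16 in R 4.3.3 (quasi-likelihood, TMM, group only; 2 residual degrees of freedom), Benjamini-Hochberg over all genes, threshold 0.05. SEs are the log2 fold change over the root of the F statistic; intervals are 95%. Total counts per library, from 19631435 to 88596296, set the counting precision. Alternatives were DESeq2 size factors, library size only, 2 filters, DESeq2 1.42.0, limma-voom (limma 3.58.1), a replicate block and leaving out each library; calls without a library and the RefSeq span were added after seeing the data. The fits were tested on simulated data drawn without any replicate effect, so that test does not cover the replicate differences seen here. The members and lists were chosen with earlier results of these data known. Named were the members and, from each list, genes past the threshold or else the 3 with the smallest p. Sequences and gene models came from RefSeq (GRCm38.p6) and GENCODE M21.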

Additional observations from a re-analysis of the deposited data

How the results depend on the processing

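The number of genes called moved most. Against 5 higher and 0 lower, a filter of 1 count gave 23 higher, DESeq2's Wald test 236 higher and 53 lower, limma-voom 0, and the replicate block 913 and 768; leaving out 1 library gave 4 (without vehicle replicate 1) to 63 (without dexamethasone replicate 1) higher and 0 to 8 (without vehicle replicate 2) lower, where the lone library of a group is assumed to vary like the other group. The cause was not tested. Among the members, the replicate block called 1 higher and 2 lower and every other alternative run called 0. The pathway lists had 3 genes higher under DESeq2 (Map3k6, Map3k8 and Mknk2), and 6 higher and 4 lower with the block. With 2 pairs the pairing is not established. Over the settings that kept all libraries, the members kept their direction except Dusp10, which turned to -0.00069 with DESeq2 size factors, -0.022 with library size only and -0.00091 with DESeq2. Leaving out 1 library reversed Dusp5 (range -0.42 to 0.11), Dusp6 (-0.58 to 0.18), Dusp7 (-0.18 to 0.94), Dusp10 (-0.31 to 0.43), Dusp16 (-0.032 to 0.16), Dusp22 (-0.29 to 0.011) and Mapk10 (-3.25 to 0.34). The member median ran from 0.0032 to 0.12 over all alternatives, lowest with library size only. The place in the order of levels held for 3 of 10 members per kb of gene span and for 1 per kb of RefSeq span. Depth limits Dusp2 most, with 5 counts in vehicle replicate 1, and a minimum of 10 counts in every library left 9 members, without it.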
